A study of Homo sapiens with 16 samples.

Results

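The E2F and retinoblastoma families hold the transcription factors and pocket proteins that time entry into S phase. Their genes were taken from a deposited FPKM table by symbol: E2F1, E2F2, E2F3, E2F4, E2F7, E2F8, RB1, RBL1, RBL2 and TFDP1, 10 of 28167 gene symbols. E2F2 stands on 2 rows, of which 1 is listed at 0 in every library, and the rows of a symbol were summed. FPKM is a count of fragments corrected for transcript length and for library size.

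An E2F protein binds DNA together with a DP partner. E2F1, E2F2 and E2F3 are the activators, and RB1 holds them silent until cyclin-dependent kinases phosphorylate it. E2F4 works mainly as a repressor with the pocket proteins p107 (RBL1) and p130 (RBL2), the latter within the DREAM complex of resting cells, and E2F7 and E2F8 are atypical repressors that need no DP partner. TFDP1 encodes DP1, the main DP partner. Several of these genes, E2F1, E2F7, E2F8 and RBL1 among them, are themselves E2F targets that rise late in G1, and loss of RB1 control is a common feature of cancer.

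SNU719 and YCC10 are established gastric cancer lines that carry Epstein-Barr virus. SNU719 was kept in RPMI1640 medium and YCC10 in EMEM, so line and medium cannot be told apart. The 16 libraries fell into 12 groups in 3 sets, each set with its own controls. In the MYB set, cells that received a small interfering RNA against MYB (siMYB) stood against control siRNA (siCtrl), with 2 libraries per group and line. In the TCF7 set, siTCF7 stood against siCtrl, with 1 library per group and line. In the CRISPRi set, the guide sgMYB-E3, which directs CRISPR interference at an enhancer of MYB, stood against sgCtrl, again with 1 library per group and line. MYB is a transcription factor of proliferating progenitor cells, and TCF7 encodes TCF-1, a DNA-binding partner of beta-catenin in WNT signalling. The times after transfection, the number of siRNA sequences and the origin of the CRISPRi cells were not given in the sources used here.

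Between 11176 and 12085 genes reached 1 FPKM per library, and the depth in fragments is unknown. The epithelial markers EPCAM, KRT8, KRT18, KRT19 and CDH1 were high in all 16 libraries, with a lowest value of 89.7 FPKM for CDH1. Of 5 gastric markers MUC5AC and CLDN18 were at or near 0 in both lines, and GATA6 stood at 10.8 to 23.4 FPKM. TFF1 and MUC1 separated the lines, at 0.431 to 1.52 and 1.64 to 5.08 FPKM in SNU719 against 10.5 to 40.7 and 62.5 to 219 in YCC10. Among markers of other cell types the leukocyte gene PTPRC did not pass 0.0253 FPKM. MYB stood at 20.2 percent of control with siMYB in SNU719 and 5.95 percent in YCC10, at 56.0 and 21.1 percent with siTCF7, and at 38.5 and 58.4 percent with sgMYB-E3. TCF7 stood at 29.7 percent with siTCF7 in SNU719 and 18.3 percent in YCC10. The 4 MYB-set libraries numbered 1 differed from the rest, since 73.02 to 79.07 percent of 215 short RNA genes had a value of 0 there, while in the other 12 libraries 41.86 to 60.47 percent did. No source used here says that libraries of a group came from separate cultures, so p-values reflect the spread between libraries, which may be technical. In these bulk libraries fewer cycling cells and less of a transcript per cell cannot be told apart.

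The promoters are shown first because several of these genes carry the site that their own family binds. Start sites and bases came from RefSeq (GRCh38.p14), whose table held windows of 250 bases before to 50 after the start for 9 of the 10 genes. The window of RB1 lay 172724 bases inside the gene and was not used, which left 8 genes. Shown are the 100 bases before the start, 5′ to 3′ on the gene's strand, with each E2F site in capitals. E2F1, RBL1 and E2F4 fell with siMYB in both lines, as did TFDP1, which is not shown, and E2F2 and E2F3 fell in YCC10. The E2F4 stretch holds no such site. A link between these sites and the changes was not tested. Searched on both strands were the E2F words TTTCCCGC, TTTCGCGC, TTTGCCGC and TTTGGCGC.
E2F1: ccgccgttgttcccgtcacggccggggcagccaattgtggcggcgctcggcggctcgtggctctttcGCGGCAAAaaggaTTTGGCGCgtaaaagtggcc
RBL1: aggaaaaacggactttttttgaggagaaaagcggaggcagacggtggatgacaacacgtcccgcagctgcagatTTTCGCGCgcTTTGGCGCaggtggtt
E2F2: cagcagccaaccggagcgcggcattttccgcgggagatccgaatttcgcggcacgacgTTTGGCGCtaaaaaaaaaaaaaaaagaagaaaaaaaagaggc
E2F3: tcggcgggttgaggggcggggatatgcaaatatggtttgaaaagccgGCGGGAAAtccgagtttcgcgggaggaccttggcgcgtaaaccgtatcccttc
E2F4: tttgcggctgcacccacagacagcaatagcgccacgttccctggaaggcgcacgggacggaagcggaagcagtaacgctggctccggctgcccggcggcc

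These stretches lie on the minus strand at chr20:33686386-33686485 (E2F1), chr20:37095998-37096097 (RBL1) and chr1:23531234-23531333 (E2F2), and on the plus strand at chr6:20401779-20401878 (E2F3) and chr16:67192055-67192154 (E2F4). E2F1 holds 2 E2F sites within the last 33 bases before its start, and RBL1 holds 2 within the last 26. E2F2 and E2F3 hold 1 each, and TFDP1 holds 1 further out, at bases -120 to -113. Over the whole windows 5 of the 8 genes searched held an E2F site, against 3.31 percent of all 35116 windows of the same length. Shares here and below count single windows, while E2F3 and RBL2 were searched in 2 windows each. E2F4, E2F7 and RBL2 held none of these words. By GENCODE coordinates the RBL2 starts lay 494 and 1642 bases inside the gene, so neither window covers the gene's first base. Matches given for RBL2 therefore describe stretches within the gene. The second E2F3 start lay 1708 bases inside its gene.

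The same windows were searched for words of the factors that were lowered. A MYB word (CAACNG or TAACNG) occurred in 3 of the 8 genes, E2F1, E2F2 and RBL2, against 46.2 percent of all windows. A TCF word (CTTTGAT or CTTTGAA) occurred in 0 of the 8, against 6.86 percent. The CHR element TTTGAA, which the second TCF word contains, occurred in E2F3 and RBL2 (15.2 percent of all windows), and the CCAAT box in E2F1, E2F3, E2F7 and RBL2 (34.6 percent). A match describes letters only, and no binding was measured in these libraries.

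**Figure D1:**
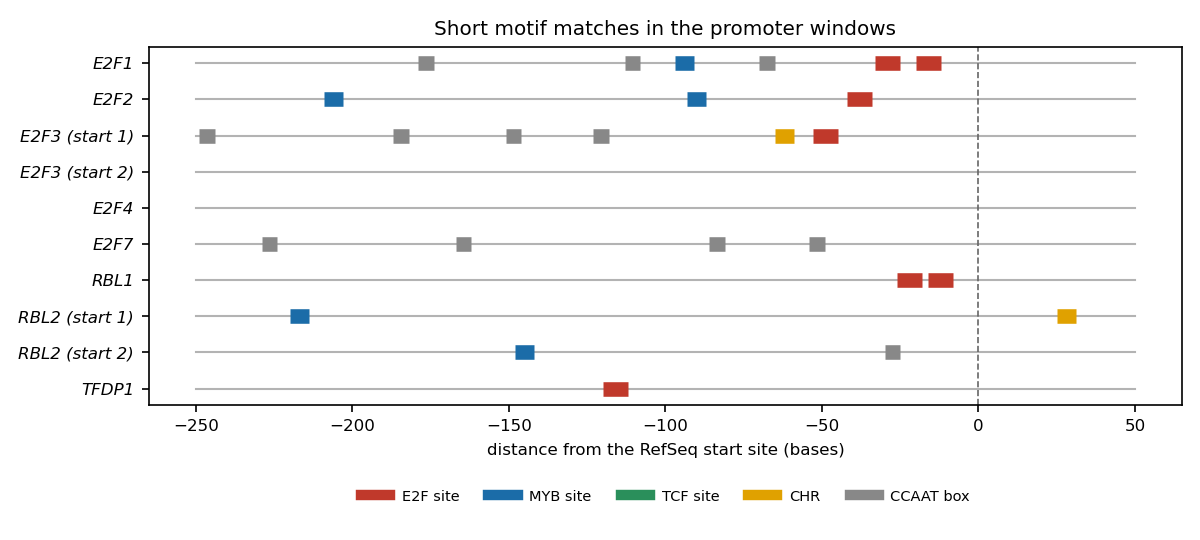
Positions of short motif words in the promoter windows of 8 genes; the horizontal axis gives the distance from the RefSeq start in bases, each grey line is 1 window, and coloured blocks are matches on either strand. E2F sites sit in E2F1, E2F2, E2F3, RBL1 and TFDP1, and no TCF word is drawn because none was found. Both RBL2 windows lie inside the gene.

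The level of each gene in the unperturbed state was read from the control libraries, 4 per line. FPKM is a level per transcript length, so the genes can be ordered. TFDP1 (ENSG00000198176.12, chr13:113584721-113641470, plus strand) was the most abundant gene of the family in both lines, at 125 to 136 FPKM in SNU719 and 61.1 to 75.4 in YCC10. E2F4 (ENSG00000205250.8, chr16:67192169-67198918, plus strand) came next, at 40.0 to 48.0 FPKM in SNU719 and 30.7 to 40.1 in YCC10. Neither range overlapped that of the gene above or below it in its line.

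Below these, the ranges of neighbouring genes mostly overlapped across the 3 sets. In SNU719 the means ran from RB1 (24.1 ± 5.28 FPKM, SD, n = 4) over E2F1 (22.6 ± 3.22), RBL2 (13.9 ± 1.197), E2F2 (12.4 ± 3.66), RBL1 (7.42 ± 0.737), E2F3 (5.77 ± 0.965) and E2F8 (4.43 ± 0.843) to E2F7 (3.65 ± 0.963). RB1 overlapped E2F1, RBL2 overlapped E2F2, and from RBL1 down to E2F7 each gene overlapped the next. Within single libraries RBL1 was nevertheless above E2F3, and E2F3 above E2F8, in 4 of 4, and the other overlapping neighbours kept this order in 3 of 4. In YCC10 the means ran from E2F1 (21.4 ± 2.79 FPKM, SD, n = 4) over RB1 (18.0 ± 3.16), E2F7 (13.2 ± 6.18), RBL2 (10.0 ± 1.05), E2F8 (8.87 ± 1.02), E2F3 (8.75 ± 1.19) and RBL1 (4.54 ± 1.09) to E2F2 (4.53 ± 2.01). In this order E2F3 lay above RBL1 without overlap, and the other neighbours overlapped. Within single libraries E2F1 was above RB1, E2F7 above RBL2 and RBL2 above E2F8 in 4 of 4, RB1 above E2F7 in 3, and E2F8 above E2F3 and RBL1 above E2F2 in 2 of 4.

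The lines carried all 10 family members and differed in the level of most of them. Of the 10 genes 9 passed the test between the lines (limma on log2(FPKM + 1) with the set as covariate, Benjamini-Hochberg adjusted p under 0.05), where 64.0 percent of all genes did. SNU719 was higher in 6 and YCC10 in 3. Among the activators E2F2 was higher in SNU719, at 8.75 and 9.87 FPKM in the MYB set, 15.2 in the TCF7 set and 15.97 in the CRISPRi set, against 3.14, 3.59, 3.86 and 7.51 FPKM in YCC10. Its difference was 1.30 log2 units (SE 0.124, adjusted p = 0.000205), and the lines did not overlap. E2F3 was lower in SNU719, with a difference of -0.53 log2 units (SE 0.04996, adjusted p = 0.000196). E2F1 gave 0.08 (95 percent interval -0.11 to 0.26, adjusted p = 0.408), so its level did not separate the lines.

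Both atypical repressors were higher in YCC10. E2F7 (ENSG00000165891.15, chr12:77021247-77065580, minus strand) stood at 2.91, 2.92, 4.95 and 3.82 FPKM in the SNU719 controls against 10.4, 9.33, 22.4 and 10.6 in those of YCC10. E2F8 stood at 3.72, 3.74, 4.82 and 5.43 FPKM against 7.82, 8.18, 9.72 and 9.76. Neither gene overlapped between the lines. The differences were -1.55 for E2F7 (SE 0.118, adjusted p = 7.8e-05) and -0.87 for E2F8 (SE 0.0538, adjusted p = 3.1e-05) in log2 units, SNU719 minus YCC10.

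The partner and the pocket proteins were higher in SNU719. TFDP1 differed by 0.93 log2 units (SE 0.05004, adjusted p = 1.8e-05), RBL1 by 0.62, RBL2 by 0.44, RB1 by 0.39 and E2F4 by 0.40. TFDP1 ran 125, 126, 136 and 128 FPKM in SNU719 against 61.1, 63.9, 75.4 and 69.0 in YCC10, and RBL1 ran 7.21, 6.53, 8.27 and 7.68 against 3.84, 3.52, 5.92 and 4.87. RB1 ranges overlapped between the lines (17.9 to 28.6 against 14.0 to 21.0 FPKM), although in each set the SNU719 controls were higher than those of YCC10. The E2F4 ranges met, at 40.0 to 48.0 against 30.7 to 40.1 FPKM. These 9 calls held without any single control library.

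**Figure D2:**
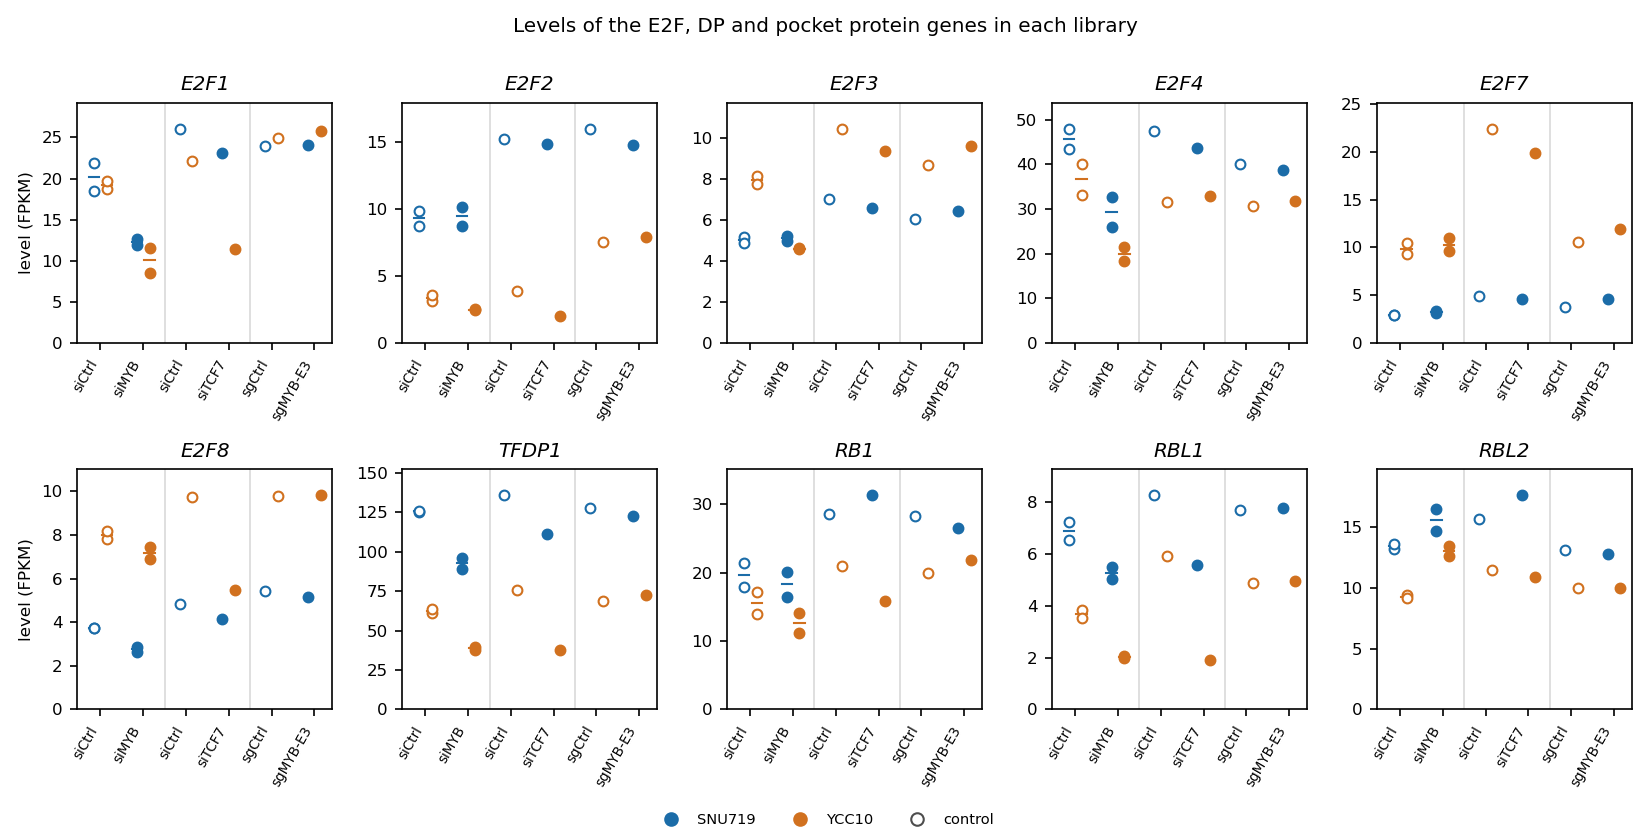
Level in FPKM (vertical axis, from 0) of the 10 genes in each of 16 libraries, by treatment and set along the horizontal axis; open circles are controls, filled circles knockdowns, and short bars means of 2 libraries in the MYB set. TFDP1 reaches 136 FPKM in SNU719, and E2F7 in the YCC10 siCtrl library of the TCF7 set stands at 22.4 against 9.33 to 10.6 in the other YCC10 controls.

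With siMYB the family shifted toward less E2F1, E2F4, RBL1 and TFDP1 and more RBL2. In SNU719 5 of the 10 genes fell and 0 rose, where 22.6 percent of all genes changed. In YCC10 6 fell and 1 rose, where 41.8 percent of all genes changed. The median log2 change over the 10 genes was -0.21 in SNU719 and -0.48 in YCC10, beside -0.06 and -0.07 over all genes tested. Over both lines together 5 fell and 1 rose, against 29.4 percent of all genes.

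Among the activators E2F1 (ENSG00000101412.12, chr20:33675683-33686404, minus strand), the classical inducer of S-phase genes, fell in both lines. Its level was 18.5 and 21.9 FPKM with siCtrl and 11.9 and 12.6 with siMYB in SNU719. In YCC10 it was 18.8 and 19.7 against 8.57 and 11.6 FPKM. No siMYB library reached a control library of its line. The log2 change was -0.67 in SNU719 (SE 0.144, adjusted p = 0.0244) and -0.88 in YCC10 (SE 0.144, adjusted p = 0.00536). Libraries numbered 1 alone gave -0.59 and -1.04, and those numbered 2 gave -0.75 and -0.71.

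E2F3 (ENSG00000112242.14, chr6:20401906-20493715, plus strand) and E2F2 responded in YCC10. E2F3 stood at 8.13 and 7.74 FPKM with siCtrl and 4.57 and 4.61 with siMYB in YCC10, a change of -0.68 (SE 0.0572, adjusted p = 0.000658). In SNU719 it stood at 5.18 and 4.86 against 4.97 and 5.23 FPKM, and the groups overlapped (0.02, 95 percent interval -0.12 to 0.16). The siMYB effects of both lines differed for E2F3 by -0.69 (SE 0.0809, adjusted p = 0.00557). E2F3 was the 1 gene of the 10 whose effect differed between lines, where 19.0 percent of all genes did. E2F2 stood at 3.14 and 3.59 against 2.43 and 2.52 FPKM in YCC10 (-0.33, adjusted p = 0.0404). In SNU719 it gave 8.75 and 9.87 against 8.73 and 10.1 FPKM (0.02, adjusted p = 0.934).

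The YCC10 call of E2F2 was lost without any of 6 libraries. Its adjusted p was 0.0522 and 0.0508 without the first and second SNU719 siCtrl library, and 0.0651 and 0.171 without those of YCC10. It was 0.143 and 0.111 without the first and second YCC10 siMYB library.

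E2F4, the E2F that mostly carries pocket proteins to DNA, fell in both lines. It stood at 43.5 and 48.0 FPKM with siCtrl and 25.9 and 32.7 with siMYB in SNU719, and at 33.1 and 40.1 against 18.5 and 21.6 in YCC10. The siMYB libraries lay below every control of their line. Its changes were -0.63 (SE 0.151, adjusted p = 0.0332) and -0.84 (SE 0.151, adjusted p = 0.00757).

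Of the atypical repressors, E2F8 (ENSG00000129173.12, chr11:19224063-19241620, minus strand) moved and E2F7 did not pass. E2F8 stood at 3.72 and 3.74 against 2.63 and 2.87 FPKM in SNU719 (-0.33, SE 0.0637, adjusted p = 0.0171) and at 7.82 and 8.18 against 6.88 and 7.44 in YCC10 (-0.14, adjusted p = 0.131). Over both lines it gave -0.24 (adjusted p = 0.0302), a call lost with a block for same-numbered libraries (adjusted p = 0.0582). That call was also lost without any of the 4 SNU719 libraries, the second YCC10 siCtrl library or the first YCC10 siMYB library (adjusted p = 0.0674 to 0.0827). E2F7 stood at 2.91 and 2.92 against 3.41 and 3.12 FPKM in SNU719 and at 10.4 and 9.33 against 11.01 and 9.60 in YCC10. Its changes of 0.12 and 0.05 gave adjusted p values of 0.367 and 0.665.

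TFDP1 fell in both lines, at 125 and 126 against 96.1 and 89.1 FPKM in SNU719 and at 61.1 and 63.9 against 39.5 and 37.9 in YCC10. The changes were -0.44 (SE 0.0571, adjusted p = 0.00574) and -0.68 (SE 0.0571, adjusted p = 0.000652). This was the call of SNU719 that held without any 1 of the 8 libraries.

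The other SNU719 calls depended on single libraries. Without the first or second siCtrl library of SNU719 the adjusted p was 0.0589 and 0.117 for E2F1, 0.0937 and 0.146 for E2F4, 0.0767 and 0.0838 for E2F8, and 0.124 and 0.0648 for RBL1. Without the first siMYB library of SNU719 it was 0.116, 0.140, 0.0837 and 0.0651 for the same genes. Without the second it was 0.0872 for E2F1 and 0.124 for RBL1. Leaving out a YCC10 siMYB library also ended the calls of E2F4 (0.0506 without the first) and RBL1 (0.0547 and 0.0539).

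The pocket proteins moved in different directions. RBL1 (ENSG00000080839.11, chr20:36996349-37095995, minus strand), encoding p107, fell from 7.21 and 6.53 to 5.51 and 5.02 FPKM in SNU719 and from 3.84 and 3.52 to 2.06 and 1.98 in YCC10. Its changes were -0.33 (SE 0.0755, adjusted p = 0.0298) and -0.63 (SE 0.0755, adjusted p = 0.00185). RBL2 (ENSG00000103479.15, chr16:53433977-53491649, plus strand), encoding p130, the pocket protein of resting cells, stood at 9.39 and 9.15 against 13.4 and 12.7 FPKM in YCC10. It rose there by 0.45 (SE 0.0685, adjusted p = 0.00408). In SNU719 it stood at 13.3 and 13.7 against 16.5 and 14.7 FPKM, so that both siMYB libraries lay above both controls, but the change of 0.20 did not pass (adjusted p = 0.0891). It passed when the replicate number was a term shared by all groups (adjusted p = 0.0371), an alternative chosen after seeing the data. Over both lines RBL2 gave 0.33 (adjusted p = 0.0165), with 0.0551 without the second YCC10 siCtrl library and 0.0516 without the first YCC10 siMYB library.

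RB1 (ENSG00000139687.15, chr13:48303726-48599436, plus strand) did not pass in either line. It stood at 21.4 and 17.9 against 20.2 and 16.5 FPKM in SNU719 and at 17.1 and 14.0 against 14.1 and 11.1 in YCC10, with overlapping groups in both. Within each line the siMYB library was below the siCtrl library of the same number. Its YCC10 change of -0.29 (adjusted p = 0.229) passed with a block for same-numbered libraries (adjusted p = 0.00458). The block also brought the line differences of E2F2 (-0.35, adjusted p = 0.0297), RB1 (-0.19, 0.0451) and RBL1 (-0.30, 0.0322) under the threshold.

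**Figure D3:**
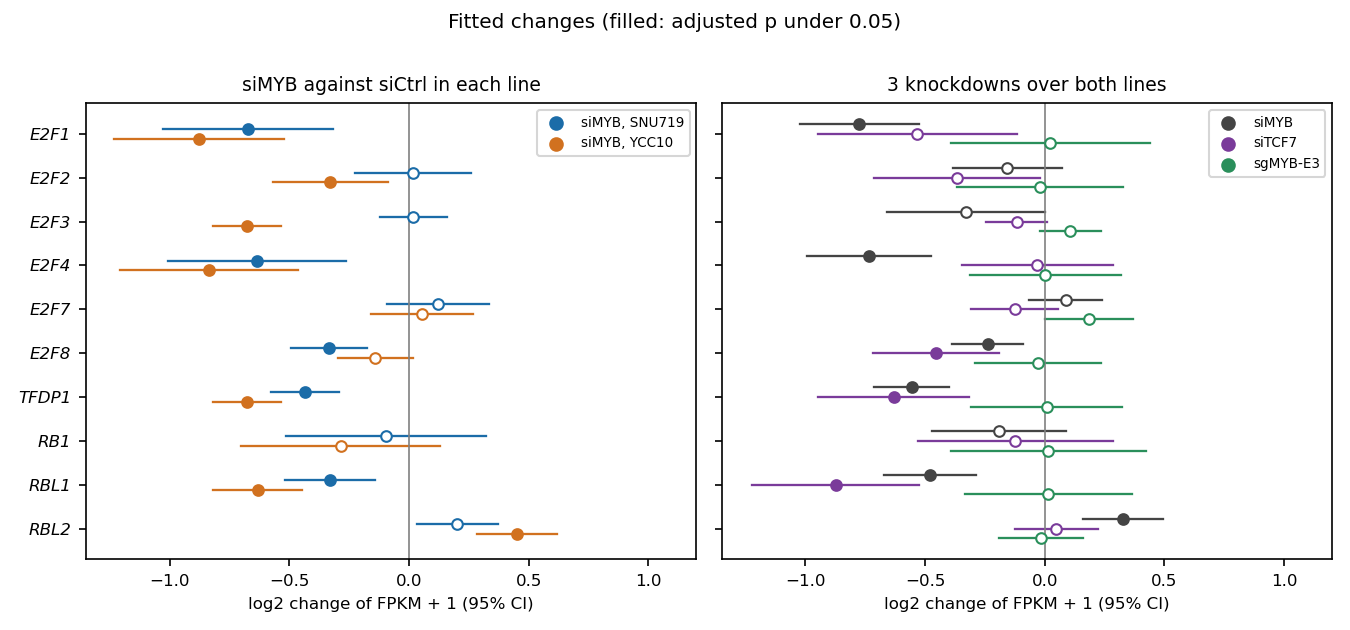
Fitted log2 changes of FPKM + 1 (horizontal axis) with 95 percent confidence intervals for the 10 genes; the left panel gives siMYB in each line and the right panel the 3 knockdowns over both lines, and filled points have an adjusted p under 0.05. RBL2 is the 1 gene with a filled point above 0, and the sgMYB-E3 points lie between -0.03 and 0.18.

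With siTCF7 the family changed mainly in YCC10. No replicate exists within a line, so a log2 change of at least 0.5 between 2 libraries is given as a size without a test. In YCC10 5 of the 10 genes were lower by that size and 0 higher, where 28.4 percent of all genes passed it in either direction. In SNU719 0 of the 10 reached it, where 8.53 percent of all genes did.

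RBL1 showed the largest of these changes. It stood at 5.92 FPKM with siCtrl and 1.90 with siTCF7 in YCC10, 32.1 percent of control, and at 8.27 against 5.59 in SNU719, 67.5 percent. TFDP1 stood at 75.4 against 37.9 FPKM in YCC10 (50.3 percent) and at 136 against 111 in SNU719 (81.7 percent). E2F8 stood at 9.72 against 5.47 FPKM in YCC10 (56.3 percent) and at 4.82 against 4.13 in SNU719 (85.6 percent). For all 3 genes the siTCF7 library was lower in both lines, as it also was for E2F1, E2F2, E2F3 and E2F7.

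E2F1 and E2F2 were lower in YCC10 by more than the size, and stood at 88.5 and 97.6 percent of control in SNU719. E2F1 stood at 22.1 against 11.4 FPKM in YCC10 and 26.1 against 23.1 in SNU719. E2F2 stood at 3.86 against 1.99 FPKM in YCC10 and 15.2 against 14.8 in SNU719. E2F4 did not share this: it stood at 31.6 against 32.97 FPKM in YCC10 and 47.5 against 43.6 in SNU719.

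The remaining genes stayed within the size. E2F3 stood at 89.3 percent of control in YCC10 and 93.5 percent in SNU719, and E2F7 at 88.6 and 93.1 percent. RB1 stood at 75.9 percent in YCC10 and 110 percent in SNU719, and RBL2 at 95.2 and 112 percent.

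A fit of all 16 libraries gave 1 siTCF7 effect shared by both lines. Its spread has 6 residual degrees of freedom, 4 from the MYB set, and the rest hold the differences between lines in the siTCF7 and sgMYB-E3 effects. In it 3 of the 10 genes fell and 0 rose, where 24.6 percent of all genes changed: RBL1 (-0.87, SE 0.151, adjusted p = 0.00981), TFDP1 (-0.63, SE 0.136, adjusted p = 0.0161) and E2F8 (-0.46, SE 0.114, adjusted p = 0.0249). E2F1 gave -0.53 (adjusted p = 0.0658), E2F2 -0.37 (0.108) and E2F4 -0.03 (0.895). When a YCC10 library of the TCF7 set was left out, the shared value is that of SNU719, and the adjusted p became 0.0995 for TFDP1 (-0.29) and 0.259 for E2F8 (-0.18). Without either SNU719 library it is that of YCC10, and E2F1 (-0.89, 0.0116) and E2F2 (-0.70, 0.00808) passed.

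With the enhancer guide sgMYB-E3 the family stayed near its controls. The fit called 0 of the 10 genes in limma and 1 at an unadjusted p under 0.05, where 0.0325 percent of all genes, 4 of 12290, were called. At an unadjusted p under 0.05 there were 461 of 12290. The fit did not call MYB itself, whose enhancer the guide addresses (-1.03, adjusted p = 0.981), so an absence of calls says little here and the values carry the description. No other tool was run. E2F1 stood at 24.0 with sgCtrl and 24.0 FPKM with sgMYB-E3 in SNU719 and at 25.0 against 25.8 in YCC10 (0.02, 95 percent interval -0.39 to 0.44). E2F4 stood at 40.0 against 38.8 and 30.7 against 31.8 FPKM, RBL1 at 7.68 against 7.76 and 4.87 against 4.94, and TFDP1 at 128 against 122 and 69.0 against 72.8. E2F7 was the 1 gene with an unadjusted p under 0.05, at 3.82 against 4.58 and 10.6 against 11.9 FPKM (0.18, adjusted p = 1).

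By size, 0 of the 10 genes reached a log2 change of 0.5 in SNU719, where 3.46 percent of all genes did, and 0 in YCC10, where 2.91 percent did. The 95 percent intervals were widest for E2F1 (-0.39 to 0.44), RB1 (-0.39 to 0.42) and RBL1 (-0.33 to 0.36). They take in the difference between lines in the siTCF7 effect. For RBL1 that effect was -0.49 in SNU719 and -1.25 in YCC10, while its sgMYB-E3 values were 0.0132 and 0.0167.

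The knockdowns were then set against each other, which asks whether the effects themselves differ. The mean siMYB effect was below the siTCF7 effect for E2F4 (-0.70, SE 0.167, adjusted p = 0.0328), 1 of the 10 genes, where 13.2 percent of all genes differed. RBL1 gave 0.39 in this comparison (95 percent interval -0.04 to 0.82, adjusted p = 0.198) and E2F1 -0.24 (-0.75 to 0.27, 0.502). Compared with sgMYB-E3, the siMYB effect was lower for E2F3 (-0.43, SE 0.0677, adjusted p = 0.0110) and E2F4 (-0.74, SE 0.167, adjusted p = 0.0338), 2 of the 10 genes, where 9.25 percent of all genes differed. E2F1 gave -0.80 (adjusted p = 0.0609), TFDP1 -0.56 (0.0732) and RBL1 -0.50 (0.134).

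These differences rest on few libraries. The E2F4 difference from siTCF7 was lost without any of 11 single libraries, among them both YCC10 libraries of the TCF7 set (adjusted p = 0.152 without either). The E2F4 difference from sgMYB-E3 was lost without any of 9 (up to 0.214, without the YCC10 sgMYB-E3 library), and that of E2F3 without any of the 4 CRISPRi libraries (0.0654 to 0.107). Without either SNU719 library of the TCF7 set the siTCF7 effect is that of YCC10, and without either YCC10 library that of SNU719. The difference between siMYB and siTCF7 was then 0.77 and 0.01 for RBL1, and 0.42 and -0.27 for TFDP1. Between siMYB and sgMYB-E3, E2F1, RBL1, RBL2 and TFDP1 each passed in 4 of the fits with a library left out. More of all genes passed there whichever TCF7-set library was left out. That step takes the siTCF7 difference between lines out of the shared spread, on which the missing calls of E2F1, TFDP1 and RBL1 depend.

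**Figure D4:**
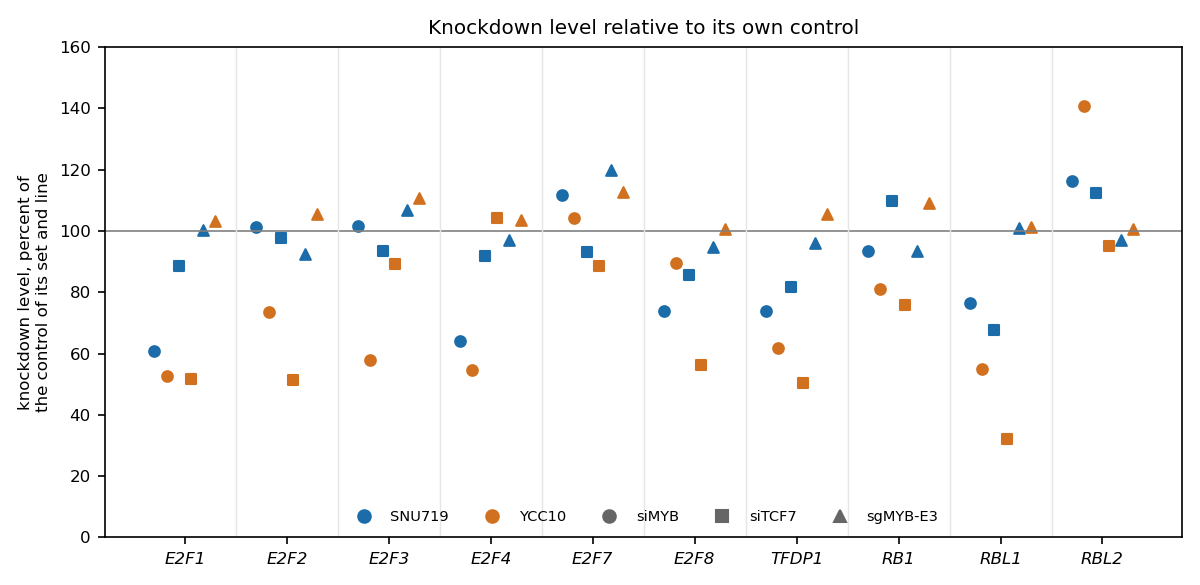
Level of each gene with a knockdown as percent of the control of its own set and line (vertical axis, from 0, line at 100); colours are lines and symbols knockdowns, each siMYB point comparing means of 2 libraries and each other point 2 single libraries. With siTCF7 in YCC10 RBL1 lies at 32.1 percent, and with siMYB E2F4 lies at 64.0 percent in SNU719 and 54.7 percent in YCC10.

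Across the 16 libraries, with the mean of each pair of line and set taken off, the genes whose log2 levels ran most like each member were ranked among 12289 genes. The r values describe these libraries only, since all points share the 3 knockdowns and the replicate difference noted above. RBL1 ran most like XRCC2 (Pearson r = 0.993), NCAPG (0.993) and PBK (0.993), and TFDP1 like SPEN (0.993), ZNF106 and TMEM97. E2F4 ran most like ATG4B (0.994), E2F1 like RBM14 (0.982), E2F8 like CENPS (0.986), E2F3 like RCL1 (0.980) and E2F2 like HIRIP3 (0.972). RB1 ran most like LNPK (0.968) and RBL2 like PHLPP2 (0.960). E2F7 had the lowest best match, KITLG at 0.883. Within the family RBL1 and TFDP1 ran most alike (0.967), and E2F4 and RBL2 ran most opposite (-0.943).

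The target genes of the family moved down with both siRNAs. A list of 37 E2F targets of G1/S and replication, such as the MCM helicase subunits, was written with earlier results of these data known and is therefore no independent evidence of direction. With siMYB 30 of 37 fell in SNU719 and 35 in YCC10, and 0 rose. The median log2 change was -0.42 and -0.71, beside -0.06 and -0.07 over all genes. With siTCF7 36 of 37 fell over both lines and 0 rose, with a median of -0.76 beside 0.00114. With sgMYB-E3 the median was 0.03 beside 0.00159, and limma called 0 of 37 in the fit that also left MYB uncalled. The shares of all genes that fell were 14.6 percent with siMYB in SNU719, 26.5 percent in YCC10 and 13.2 percent with siTCF7, and the shares that rose were 8.04, 15.3 and 11.4 percent.

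Single targets show the sizes. TYMS, thymidylate synthase, stood at 149 and 146 against 100 and 101 FPKM with siMYB in SNU719 and at 141 and 137 against 55.2 and 56.6 in YCC10. With siTCF7 TYMS stood at 140 against 115 in SNU719 and 151 against 67.1 in YCC10, and with sgMYB-E3 at 149 against 150 and 137 against 145. PRIM1, the small primase subunit, fell with siMYB in SNU719 (-0.73, adjusted p = 0.00167) and in YCC10 (-1.39, 0.00015). ORC1, of the origin recognition complex, fell with siTCF7 by 1.05 (adjusted p = 0.00904).

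The siMYB log2 change was lower in YCC10 than in SNU719, a larger fall, for 15 of the 37 targets and higher for 0. It was lower for 10.3 percent of all genes. MYB itself stood at 5.95 percent of control in YCC10 and 20.2 percent in SNU719. The 15 targets include TYMS (-0.75, adjusted p = 0.00222), the methyltransferase gene EZH2 (-0.68, 0.00332), RRM2, of ribonucleotide reductase (-0.83, 0.00463), and MCM10 (-0.79, 0.00576). With the block 23 were lower. Without any 1 of 4 libraries, the second of SNU719 siCtrl, the second of SNU719 siMYB, the first of YCC10 siCtrl or the first of YCC10 siMYB, 9 were lower. The siMYB count of 30 in SNU719 was 15 and 13 without its first and second siCtrl library and 15 without its first siMYB library. The siTCF7 count of 36 was 11 without either TCF7-set library of YCC10. In SNU719 alone the siTCF7 median was -0.37, and 7 of 37 were lower by 0.5, where 3.66 percent of all genes were. In YCC10 alone the siTCF7 median was -1.22, and 37 of 37 were lower by 0.5, where 14.8 percent of all genes were. In the controls 13 of 37 targets were higher in SNU719 and 8 lower, together a smaller share than the 64.0 percent of all genes that differed, led by MCM6 (1.58, adjusted p = 1.56e-06) and RFC3 (1.54, 1.42e-05).

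**Figure D5:**
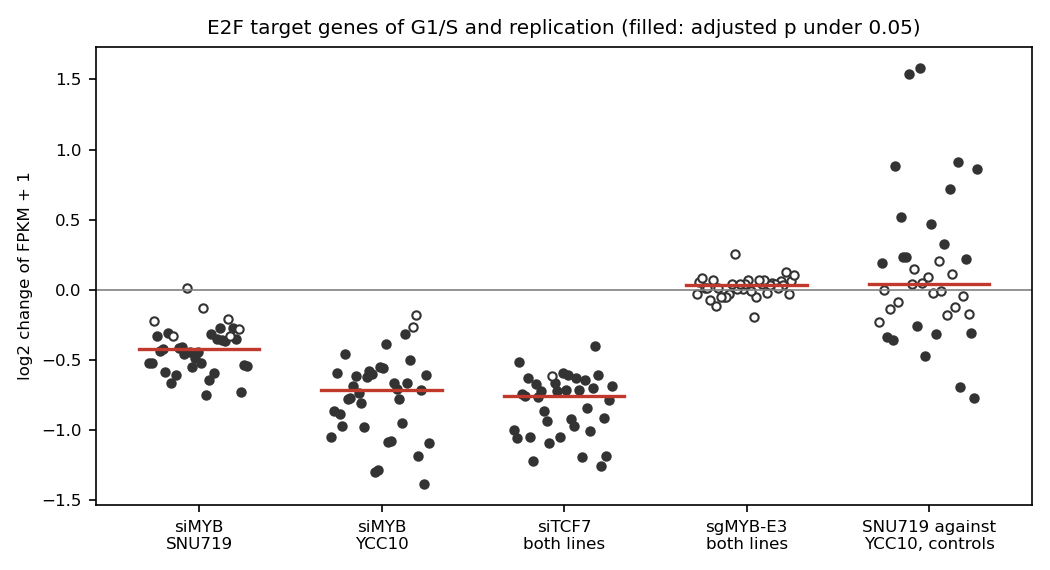
Log2 change of FPKM + 1 (vertical axis) of each of 37 E2F target genes, by comparison along the horizontal axis; red bars are medians, filled points have an adjusted p under 0.05, and sideways spread has no meaning. The medians are -0.42 and -0.71 with siMYB in SNU719 and YCC10, -0.76 with siTCF7 and 0.03 with sgMYB-E3.

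The cyclins, kinases and inhibitors that set RB1 phosphorylation changed in both directions. Of 16 listed genes 14 could be tested, and CDKN1C and CDKN2A stayed under 0.2 FPKM in every library. With siMYB 4 of the 14 rose and 2 fell in SNU719, where 8.04 percent of all genes rose and 14.6 percent fell. Both of these counts changed in some fits with a library left out, and the median of the 14 there ranged from -0.03 to 0.05. In YCC10 2 rose and 7 fell, where 15.3 percent rose and 26.5 percent fell. CDKN2B, encoding the CDK4/6 inhibitor p15, stood at 4.35 and 4.16 against 14.1 and 13.9 FPKM in SNU719 (1.51, adjusted p = 0.000226) and was listed at 0 in all YCC10 libraries. CDKN1A, encoding p21, rose over both lines by 0.57 (adjusted p = 0.00363) and with siTCF7 by 0.54 (0.0215). CCND3, a D cyclin, stood at 6.98 and 7.62 against 24.0 and 28.3 FPKM with siMYB in YCC10 (1.71, 0.000204), and CCNE2, a cyclin E gene, fell there (-1.103, 0.000895).

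The D cyclin genes also marked the lines in the controls. CCND2 was listed at 0 in all YCC10 libraries and stood at 7.66 to 11.8 FPKM in the SNU719 controls. CCND1 was lower in SNU719 (-1.60, adjusted p = 1.65e-06), as were CCNE1 (-1.58, 3.97e-06) and CDKN1A (-1.53, 8.9e-06).

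Genes for the turnover of E2F1 and its partners mostly fell. Of 8 listed, 6 fell with siMYB in each line and 5 with siTCF7 over both lines, with 0 rising. Of all genes 14.6 percent fell with siMYB in SNU719, 26.5 percent in YCC10 and 13.2 percent with siTCF7. SKP2, the ubiquitin ligase subunit that binds E2F1 and p130, stood at 39.9 and 36.3 against 19.4 and 20.9 FPKM in SNU719 and at 39.6 and 43.1 against 25.1 and 23.0 in YCC10 with siMYB. With siTCF7 SKP2 fell by 1.07 (adjusted p = 0.0101) and CCNA2, cyclin A, by 1.28 (0.0138). CUL1, the ligase scaffold, fell with siMYB by 0.46 (adjusted p = 0.00445), more than with siTCF7 (difference -0.43, adjusted p = 0.0111). That difference was not called with quantile normalization. In SNU719 both other scalings and no filter left 3 of the 8. Without single libraries that count fell to 1 (first siCtrl and either siMYB library of SNU719), 2 (second siCtrl library of SNU719) or 3 (either siCtrl library or the first siMYB library of YCC10).

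Of 12 corepressors recruited by pocket proteins, 5 fell with siMYB in SNU719, 7 in YCC10 and 6 with siTCF7, and 0 rose, beside 14.6, 26.5 and 13.2 percent of all genes that fell. The histone deacetylase gene HDAC1 stood at 240 and 250 against 198 and 206 FPKM in SNU719 (-0.27, adjusted p = 0.0147) and at 133 and 134 against 83.5 and 87.1 in YCC10 (-0.64, 0.000516). HDAC1 was lower with siMYB than with siTCF7 (difference -0.40, adjusted p = 0.00926). The SNU719 count of this list was 2 with median-of-ratios scaling and 1 with quantile normalization. It was 0 without either siCtrl library or the first siMYB library of SNU719 and 1 without the second siMYB library. The siTCF7 count was 0 without either TCF7-set library of YCC10.

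The MuvB core joins p130 and E2F4 in the repressive DREAM complex and B-MYB (MYBL2) in its activating form. Of its 5 core genes and MYBL2, 2 fell with siMYB in SNU719, 3 in YCC10 and 4 with siTCF7. In these comparisons 0 of the 6 rose. Of all genes 14.6, 26.5 and 13.2 percent fell, and 22.6, 41.8 and 24.6 percent changed in either direction. Whether this short list differs from all genes was not tested. Both other scalings and no filter left 1 in SNU719. By line, the siTCF7 median of the 6 was -0.26 in SNU719 and -0.89 in YCC10. Lower by 0.5 were 1 and 5 of the 6, beside 3.66 and 14.8 percent of all genes. MYBL2 stood at 92.1 and 104 against 59.6 and 59.7 FPKM in SNU719 and at 109 and 122 against 48.1 and 51.3 in YCC10 with siMYB. LIN9, a core subunit, fell over both lines with siMYB by 0.50 (adjusted p = 0.00686) and with siTCF7 by 0.67 (0.0210).

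Of the 3 other E2F and DP genes tested, 1 fell with siMYB in SNU719, where 14.6 percent of all genes fell. In YCC10 1 rose, where 15.3 percent of all genes rose. TFDP2, encoding DP2, stood at 4.98 and 4.38 against 2.99 and 2.81 FPKM with siMYB in SNU719 (-0.54, adjusted p = 0.00811) and under 0.5 FPKM in every YCC10 library. E2F5, which pairs with p130, stood at 9.84 and 8.81 against 12.6 and 11.3 FPKM in YCC10 (0.33, adjusted p = 0.0458). That call was lost in some fits with a library left out. E2F6, an E2F without a pocket-binding domain, did not pass in any knockdown but was higher in SNU719 controls (0.85, 5.3e-05). TFDP3 did not reach 0.03 FPKM in any library.

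Apoptosis genes linked to E2F1 showed no common direction. Of 8 listed 7 could be tested, TP73 staying under 0.2 FPKM. With siMYB 2 of the 7 rose and 0 fell in SNU719, where 22.6 percent of all genes changed, and 2 rose and 3 fell in YCC10, where 41.8 percent did. TP53INP1, a p53 cofactor gene, rose in both lines (0.53, adjusted p = 0.0325, and 1.13, 0.00144). PMAIP1, encoding NOXA, stood at 4.91 and 4.35 against 9.58 and 9.29 FPKM in SNU719 but at 6.06 and 5.31 against 3.23 and 3.53 in YCC10, and the effects differed (-1.50, adjusted p = 0.00206). APAF1, of the apoptosome, fell in YCC10 by 0.86 (0.00076).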

How the data were processed

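RNA-seq libraries were made from 1 ug of total RNA with a stranded poly(A) kit, per the labels' protocols. The authors deposited FPKM values, and the submitters' processing notes name bcl2fastq 2.20.0, HISAT2 2.1.0, Cufflinks 2.2.1 and hg38. For their settings and the annotation, nothing was given in the sources used here. The table has 33648 rows and 0 columns of other samples. Depth is unknown; relative depth estimated from the lowest values ranged from 0.603 to 1.30.

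Tests used limma 3.58.1 with an intensity trend (R 4.3.3) on log2(FPKM + 1), which understates changes of low genes. Genes needed a mean of 1 FPKM over the libraries of a fit, p-values were Benjamini-Hochberg adjusted over all of them, and the threshold was 0.05. All 10 members passed the filter in every fit. For the MYB set the model had a mean for each of 4 groups, siMYB over both lines had the line as covariate, and the other knockdowns were fitted in all 16 libraries with a term for each line and set. The fits were tested on simulated data with independent noise in each library and, for siTCF7 and sgMYB-E3, the same change in both lines. The real libraries differ from this setting, so the simulation cannot show how the tests behave here. Same-numbered libraries of the MYB set deviated together (r = 0.342 and 0.438 within lines, 0.326 to 0.411 across), so a fit with a block is given where it changes a call.

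The members and the lists were chosen with earlier results of these data known. Named are all members, MYB and TCF7, up to 4 genes per list and comparison with the lowest adjusted p among those past the threshold, and for each member the 3 genes with the highest correlation. The genes that failed the filter, those listed at 0, and values of a named gene in other comparisons were given after their values were seen. Alternatives were a pseudocount of 0.1, no filter, 2 scalings, the highest row per symbol, the block and each library left out. A term for the replicate number shared by all groups, and the settings for the lists, were added after seeing the data.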

Additional observations from a re-analysis of the deposited data

Results flagged for a closer look

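E2F7 stood at 22.42 FPKM in the YCC10 siCtrl library of the TCF7 set, against 9.33 to 10.6 in the other 3 YCC10 controls, a gap of 0.903 of the range of the 4 libraries. E2F2 stood at 7.507 FPKM in the YCC10 sgCtrl library of the CRISPRi set, against 3.14 to 3.86 in the other 3, a gap of 0.835 of the range. Both gaps exceed Dixon's 95 percent critical value for 4 libraries; 20 groups of controls were checked, and chance marks about 1 in 20. In both cases the knockdown library of the same set and line was also high, at 19.9 FPKM for E2F7 with siTCF7 and 7.93 for E2F2 with sgMYB-E3. The set that each belongs to was not tested as a source. The siMYB effect on E2F3 differed between the lines, with an interaction of -0.6946 log2 units, YCC10 minus SNU719 (limma, SE 0.0809, adjusted p = 0.00557). Both YCC10 siMYB libraries were below both controls, and in SNU719 the 2 groups overlapped.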

How the results depend on the processing

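FPKM holds no fragment counts, so counting error could not be separated from the spread between libraries, which rests mainly on 2 libraries per group of the MYB set. With no filter the count of the 10 genes called was 3 with siMYB in SNU719 (E2F4 0.0553 and RBL1 0.0549 were lost), 0 between siMYB and siTCF7 and 1 between siMYB and sgMYB-E3; more genes were then tested. E2F2 in YCC10 (0.0767) and E2F8 with siMYB over both lines (0.0613) and with siTCF7 (0.0529) were lost too. With median-of-ratios scaling and quantile normalization RBL1 in SNU719 (0.0912, 0.108), E2F2 in YCC10 (0.0733, 0.0587) and E2F8 over both lines (0.125, 0.113) were lost, and the cause was not tested. With median-of-ratios scaling RBL2 differed between siMYB and sgMYB-E3 (0.0384). In size, 1 gene, RBL1, passed 0.5 with siTCF7 in SNU719 at a pseudocount of 0.1, and 1 with quantile normalization. The replicate block gave 4 genes whose siMYB effect differed between lines, and the shared number term 5; that term gave 4 between siMYB and sgMYB-E3 and left every log2 change as it was. The shared term lost no call and gained 11: RBL2 in SNU719 (0.0371), E2F8 (0.0431) and RB1 (0.00148) in YCC10, RB1 over both lines (0.0388), E2F1 with siTCF7 (0.0427), E2F1 (0.0379) and RBL2 (0.0374) between siMYB and sgMYB-E3, and the line differences of E2F2 (0.0206), RB1 (0.0282), RBL1 (0.0194) and TFDP1 (0.0435). Apart from the calls given beside the results, the block changed no call. Over all genes, calls with siMYB in SNU719 were 2737, 4856 with the block and 5269 with the shared term; the line difference gave 2297, 4352 and 4750; the shared term gave 2549 against 1618 between siMYB and siTCF7 and 2087 against 1137 between siMYB and sgMYB-E3; no filter gave 8 against 4 with sgMYB-E3. Without a TCF7-set library the fit gave 2455 to 2475 between siMYB and sgMYB-E3 in place of 1137. The share of calls that were higher moved under median-of-ratios and quantile scaling from 35.5 to 51.0 and 47.1 percent (siMYB, SNU719), 36.6 to 52.9 and 50.3 (YCC10), 29.8 to 51.3 and 46.4 (both lines), 30.9 to 48.8 and 45.9 (against siTCF7), 31.0 to 54.1 and 51.7 (against sgMYB-E3) and 45.5 to 54.4 and 56.9 (line difference).

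Leaving out each library in turn gave 1 to 5 calls with siMYB in SNU719, 1 to 5 with siTCF7, 0 to 6 between siMYB and siTCF7 and 0 to 6 between siMYB and sgMYB-E3. Values that changed sign had not passed. With siMYB in SNU719 E2F2 ranged from -0.0809 to 0.115, E2F3 from -0.01995 to 0.0573 and RB1 from -0.233 to 0.0411. E2F7 ranged from -0.0357 to 0.145 in YCC10 and from -0.157 to 0.0242 between lines. With siTCF7 E2F4 ranged from -0.122 to 0.0592, RB1 from -0.377 to 0.129 and RBL2 from -0.0647 to 0.16. With sgMYB-E3 E2F2 ranged from -0.108 to 0.0698, E2F4 from -0.0442 to 0.0492 (-0.00372 with quantile normalization), E2F8 from -0.0648 to 0.0101, RB1 from -0.0922 to 0.121, RBL2 from -0.0399 to 0.0082 and TFDP1 from -0.0588 to 0.0756. Between siMYB and siTCF7 E2F1 ranged from -0.61 to 0.12, E2F2 from -0.12 to 0.55, E2F8 from -0.0546 to 0.49, RB1 from -0.32 to 0.19 (0.000942 and 0.018 with the scalings) and TFDP1 from -0.27 to 0.42. Of 1040 values for single genes with a library left out, 910 kept their direction and side of the threshold, 59 lost a call and 30 gained one.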
